A study of Heterocephalus glaber with 215 samples.

Results

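The hearts of naked mole-rats that breed were compared with the hearts of naked mole-rats that do not, with both sexes together. Of the 215 RNA-seq libraries of the series, 24 are from heart and all of them were used, 12 from breeders and 12 from non-breeders. The members were chosen by the tissue and status letters of the sample labels, without use of any measured value. Naked mole-rats are eusocial rodents in which usually 1 female and her mate reproduce while the other colony members work and stay sexually dormant. The breeders were 6 females (BF, 3.52 ± 0.18 years, SD) and 6 males (BM, 3.52 ± 0.57 years), and the non-breeders were 6 females (NF, 3.40 ± 0.60 years) and 6 males (NM, 3.42 ± 0.56 years). The breeders had each been moved from the home colony to live with a mate from another family, whereas their non-breeding brothers and sisters of the same litters went on living and working at home. Breeding status therefore cannot be told apart from leaving the home colony and living with a partner. Tissue of breeding males was taken days after their mate had given birth, that of breeding females some weeks after their last pregnancy, so among breeders sex cannot be told apart from the time of sampling. Litter and colony of origin were entered in no test, and each animal gave a single heart library.

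The heart is made of contractile cardiomyocytes set in a matrix of collagens and glycoproteins that fibroblasts lay down, and it is threaded by capillaries. Cardiomyocytes draw most of their energy from fatty acids burnt in mitochondria, and their rhythm, load and metabolism answer to adrenergic, thyroid and steroid hormones. Pregnancy enlarges the heart in many mammals, and steroid hormones act on heart cells through receptors that cardiomyocytes and fibroblasts carry. In bulk tissue, fewer cells of a type and less RNA per cell cannot be told apart.

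Levels are given in CPM, counts per megaread of the library after TMM scaling (edgeR's correction for unequal RNA composition). For a status, the lowest, the median and the highest of 12 libraries are given. Log2 fold changes are breeders over non-breeders from edgeR's quasi-likelihood fit with sex as a covariate, with their standard error (SE), and a gene was called where its Benjamini-Hochberg adjusted p over all 12336 genes tested was below 0.01.

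Library totals ran over 10.5 to 19.8 megareads (Mreads) in breeders and 10.4 to 15.9 Mreads in non-breeders (permutation p = 0.160), and breeders were older by 0.11 years on average (permutation p = 0.617). Heart markers stood out in all 24 libraries, where cardiac alpha-actin (ACTC1), troponins TNNT2 and TNNI3, the ventricular light chains MYL2 and MYL3, natriuretic peptide NPPA, the calcium release channel RYR2 and the myosin-binding protein MYBPC3 each lay above their level in all 191 libraries of other tissues. The Z-disc genes ACTN2 and CSRP3 overlapped with other tissues, where 5 libraries for ACTN2 and 2 for CSRP3 lay above the lowest heart. MYH6, MYH7, PLN and PDK4 were not rows of the table used, so the main myosin heavy chains, phospholamban and pyruvate dehydrogenase kinase were not analysed here. Some libraries stood apart. The atrial marker SLN (sarcolipin, an inhibitor of the calcium pump) was at 172.0 CPM in BF_6382, 138 CPM in BF_1816, 79.4 CPM in BM_1215 and 90.05 CPM in NF_3605, against at most 6.23 CPM in the other 20 libraries. NPPA was at 3174 CPM or more in these 4 libraries and at most 2476 CPM in the others. NF_0525, from the youngest animal (2.4 years), had the lowest median correlation with the other hearts (0.920) and BF_1816 the next lowest (0.940), and the 10 most abundant genes took 51.4% of the counts in NF_0525 but at most 38.9% in any other heart. The main lists and several genes are therefore also given without the 4 libraries high in atrial markers, and without these 4 and NF_0525, which leaves 9 breeders and 10 non-breeders.

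**Figure D1:**
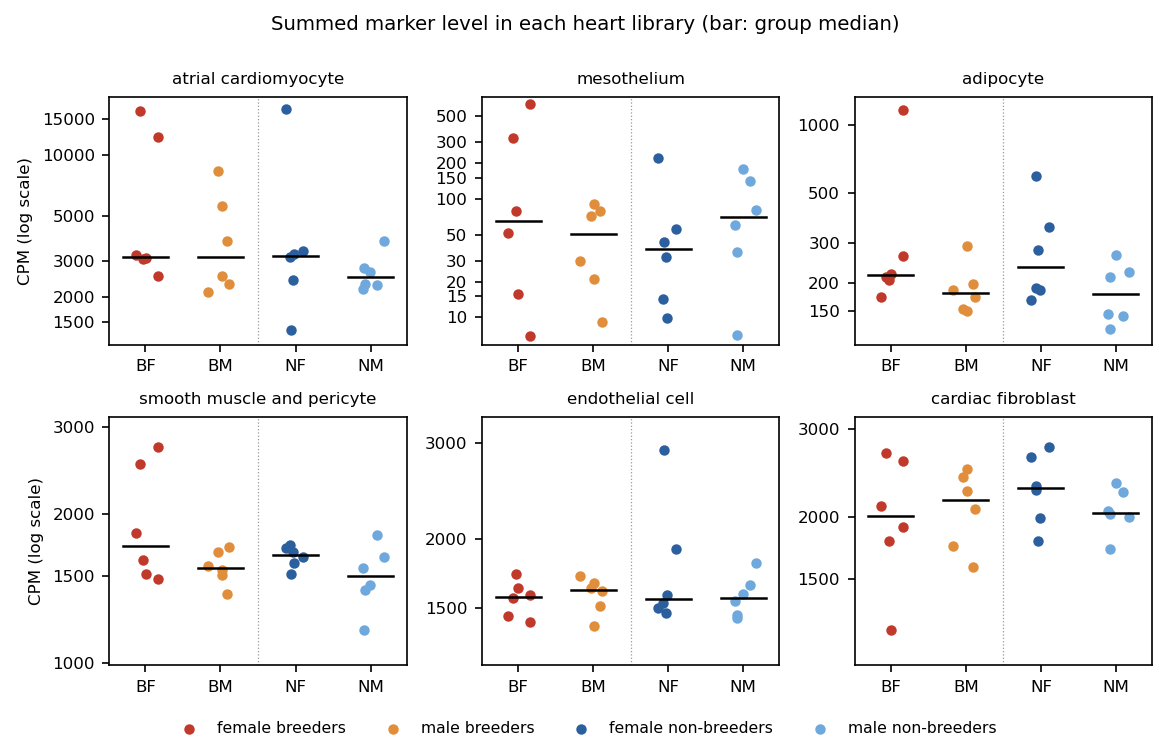
Summed level (CPM, log axes) of 6 cell type marker lists in each heart library, with BF and BM (breeders) left of the dotted line, NF and NM (non-breeders) right of it, and a bar at each group's median. The atrial sum was 8260 CPM or more in 3 breeder libraries and 1 non-breeder library, and at most 5577 CPM in the other 20, and the statuses overlapped in all 6 lists.

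No gene passed the test between breeders and non-breeders. In edgeR 0 of 12336 genes were called (0% of genes tested), and the smallest adjusted p was 0.584. At an unadjusted p below 0.05 stood 924 genes, 454 with a higher level in breeders (3.68% of genes tested) and 470 with a lower one (3.81%). DESeq2 with the same model also made 0 calls, with a smallest adjusted p of 0.0523, and had 1013 genes below that unadjusted p. The limma-voom fit made 0 calls, with a smallest adjusted p of 0.743, and had 782 such genes. The statuses overlapped for every gene tested, in that no gene had all 12 breeders above or all 12 below all 12 non-breeders. The fold changes were centred on 0, with 6236 genes positive and 6100 negative and a median of 0.0016. The 95% confidence interval of the log2 fold change had a median halfwidth of 0.22, and it lay wholly within ±1 for 11656 genes (94.5%) and wholly within ±0.5 for 9219 genes (74.7%). A total of 103 genes had an estimate beyond ±1, none of them called.

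**Figure D2:**
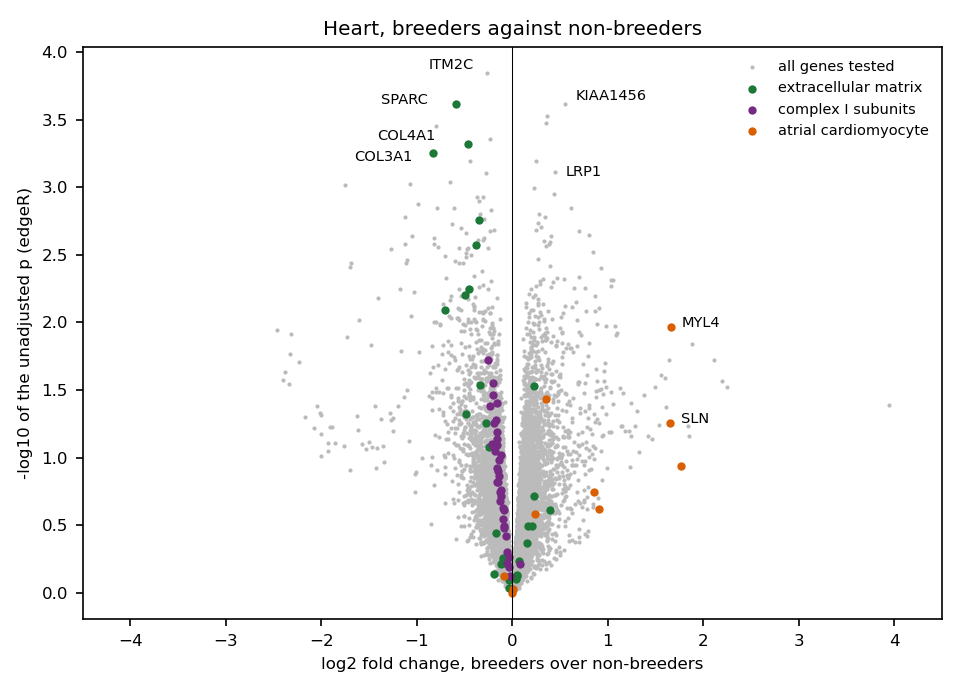
Log2 fold change (breeders over non-breeders, x) against -log10 of the unadjusted p (edgeR, y) for the 12336 genes tested in heart, with 3 lists coloured. No gene reached an adjusted p below 0.01, collagens and SPARC lie among the smallest p values on the left, and atrial markers spread to the right.

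The genes with the smallest p values on the lower side were ITM2C, SPARC, RAMP3, SERPINH1, COL4A1, COL3A1, TMEM180, PALLD, RASGEF1B and CCDC17. They were taken by their rank, so their values are a description. Several of them code for the matrix or its making. SPARC, a secreted glycoprotein that binds collagen, was at 282, 347 and 508 CPM in breeders and 282, 534 and 1073 CPM in non-breeders. All 12 breeders lay below the non-breeder median, while the lowest non-breeder, NM_4925, lay level with the lowest breeder. Its log2 fold change was -0.59 ± 0.14, with an unadjusted p of 0.000242 and an adjusted p of 0.584 (edgeR). The highest SPARC level, 1073 CPM, came from NF_0525, and without the 5 libraries named above the log2 fold change was -0.41.

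COL3A1, the fibrillar collagen of elastic tissues, was at 91.7, 155 and 325 CPM in breeders and 134, 298 and 460.1 CPM in non-breeders. Its log2 fold change was -0.83 ± 0.21 (adjusted p = 0.584, edgeR), and 1 of 12 breeders, BF_1816, lay above the non-breeder median. COL4A1, a chain of the basement membrane collagen, was at 184, 218 and 298 CPM in breeders and 215, 314 and 510.3 CPM in non-breeders, with no breeder above the non-breeder median and a log2 fold change of -0.46 ± 0.11. SERPINH1, the chaperone that helps collagen fold in the endoplasmic reticulum, spanned 198, 216 and 247 CPM in breeders and 225, 259.6 and 314 CPM in non-breeders. Again no breeder reached the non-breeder median, and the log2 fold change was -0.23 ± 0.06. COL1A1, the main chain of type I collagen, was at 28.5, 51.8 and 114 CPM in breeders and 40.6, 88.3 and 184 CPM in non-breeders, with 2 of 12 breeders above the non-breeder median and a log2 fold change of -0.71 ± 0.24 (adjusted p = 0.641, edgeR).

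ITM2C, a membrane protein of the BRICHOS family that is known mainly from brain, had the smallest p of all genes (unadjusted p = 0.000143, adjusted p = 0.584, edgeR). It was at 57.2, 69.8 and 82.1 CPM in breeders and 72.8, 84.2 and 96.5 CPM in non-breeders, and 7 breeders lay below every non-breeder while 8 non-breeders lay above every breeder. The log2 fold change was -0.26 ± 0.06. RAMP3, which pairs with the calcitonin receptor-like receptor to make an adrenomedullin receptor, was at 2.28, 7.23 and 12.4 CPM in breeders and 7.46, 11.7 and 23.9 CPM in non-breeders. Its log2 fold change was -0.80 ± 0.19, and its highest value, in NF_0525, and its lowest, in BF_1816, both came from libraries that stood apart. Without the 5 libraries RAMP3 stood at -0.52 on the log2 scale. The remaining genes of the group had log2 fold changes of -0.27 ± 0.07 for the actin crosslinker PALLD (palladin), -0.65 ± 0.17 for the exchange factor gene RASGEF1B, -0.44 ± 0.11 for TMEM180 and -1.07 ± 0.29 for CCDC17.

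**Figure D3:**
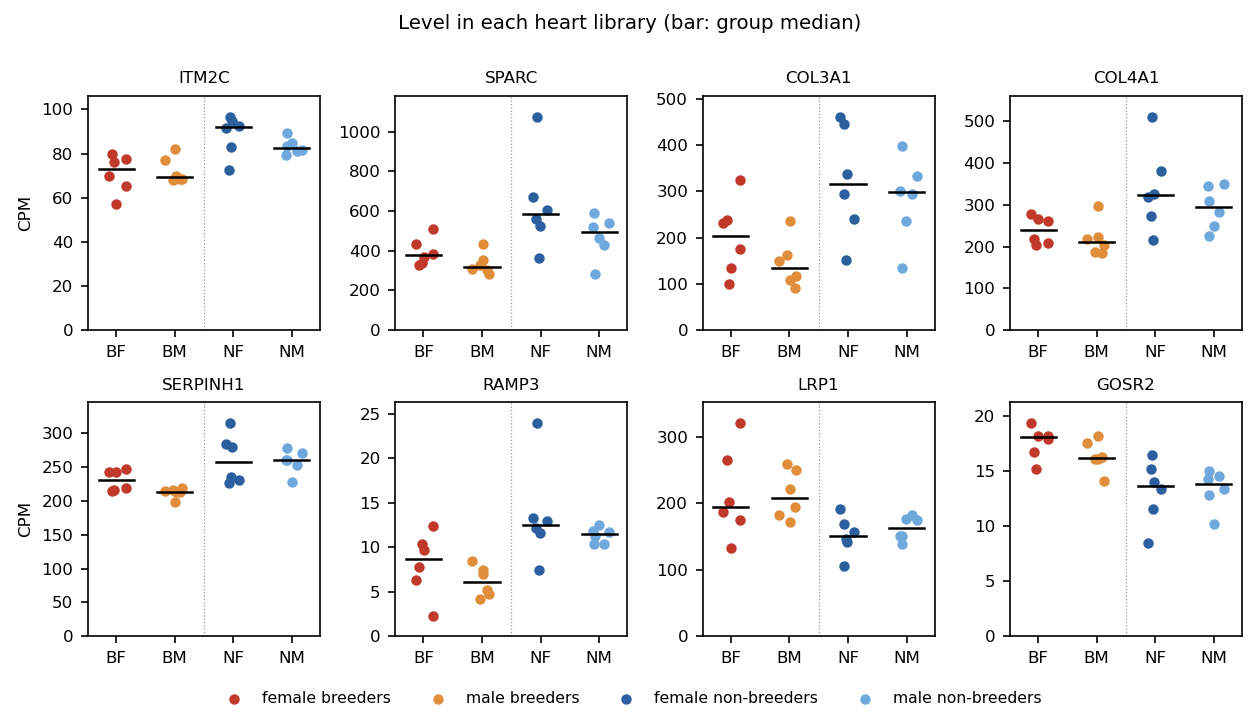
Level (CPM, linear axes from 0) of 8 genes of small p in each heart library, with breeders (BF, BM) left and non-breeders (NF, NM) right of the dotted line, and a bar at each group's median. For SPARC, COL4A1, SERPINH1 and ITM2C every breeder lies below the median of the 12 non-breeders, and for GOSR2 every breeder lies above it, but the statuses overlap in all 8 genes.

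On the higher side the 10 smallest p values belonged to KIAA1456, ZNF575, GOSR2, RBM15B, LRP1, TNPO2, USP37, IQCD, PPHLN1 and SWSAP1, again chosen by rank. GOSR2, a SNARE protein of transport through the Golgi, was at 14.1, 17.1 and 19.3 CPM in breeders and 8.48, 13.7 and 16.4 CPM in non-breeders. Every breeder lay above the non-breeder median, and the log2 fold change was 0.36 ± 0.09 (unadjusted p = 0.000335, adjusted p = 0.584, edgeR). LRP1, an endocytic receptor for lipoproteins and matrix proteins, was at 133, 198 and 320.2 CPM in breeders and 106, 154 and 192 CPM in non-breeders, with a log2 fold change of 0.45 ± 0.12. Its highest breeder values came from BF_1816 and BF_6382, both high in atrial markers, and its lowest non-breeder value from NF_0525, and without the 5 libraries the log2 fold change was 0.27. KIAA1456, which codes for a tRNA methyltransferase-like protein, was at 2.31, 3.21 and 6 CPM in breeders and 1.85, 2.21 and 3.17 CPM in non-breeders (log2 fold change 0.56 ± 0.13). The others were low to moderate in level. Their log2 fold changes were 0.36 ± 0.09 for the zinc finger gene ZNF575, 0.25 ± 0.06 for the RNA-binding protein gene RBM15B, 0.23 ± 0.06 for the nuclear import receptor TNPO2 and 0.44 ± 0.12 for the deubiquitinase USP37. They were 0.61 ± 0.17 for IQCD, 0.28 ± 0.08 for PPHLN1 (periphilin) and 0.34 ± 0.10 for SWSAP1.

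The extracellular matrix list held 30 genes, all tested. At an unadjusted p below 0.05 were 10 members on the lower side, against 3.81% of all genes tested, and 1 on the higher side, against 3.68%. The list was chosen with earlier results of these data known. Its members share libraries and are not independent of each other, so these counts are a description. Of the 30, 20 had a lower level in breeders, with a median log2 fold change of -0.11, where the median of all genes was 0.0016. Besides SPARC, COL4A1, COL3A1 and COL1A1, the members on the lower side were COL4A2 (-0.35 ± 0.10 on the log2 scale), COL15A1 (-0.38 ± 0.11), MMP2 (-0.45 ± 0.15), LOXL2 (-0.50 ± 0.17), COL6A1 (-0.34 ± 0.15) and COL1A2 (-0.48 ± 0.23), which were named after their values were seen. COL4A2 and COL15A1 are collagens of the basement membrane zone, MMP2 is a gelatinase and LOXL2 crosslinks collagen. TIMP2, an inhibitor of such proteases, was the member on the higher side (0.22 ± 0.10). Other matrix genes stood near 0, among them the proteoglycan DCN (0.048 ± 0.15), POSTN (0.075 ± 0.13) and FN1, fibronectin (0.15 ± 0.19), also picked after their values were seen.

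Several libraries and one covariate moved with the matrix values. The list's summed level was 2673, 3307 and 4472 CPM in breeders and 2481, 3961 and 6078 CPM in non-breeders. Without the 4 libraries high in atrial markers the median log2 fold change was -0.28, with 25 of 30 negative and 14 at an unadjusted p below 0.05 on the lower side, and without these 4 and NF_0525 it was -0.15, with 24 negative and 11 on the lower side. Age coefficients of the matrix genes were mostly negative. With age added to the fit, 1569 of 12336 genes had an unadjusted p below 0.05 for age, and 1 was called (edgeR). NF_0525, from the youngest animal, had the highest SPARC and COL4A1 levels of all hearts and the next to highest COL3A1 and COL1A1. The age fit was not run without this library. The log2 difference per year, from the fit with age added, was -0.40 ± 0.12 for SPARC (unadjusted p = 0.00244), -0.29 ± 0.11 for COL4A1, -0.49 ± 0.20 for COL3A1 and -0.61 ± 0.24 for COL1A1, with adjusted p values of 0.302 to 0.349 (edgeR). In that fit the status difference was -0.52 for SPARC and -0.74 for COL3A1, and the list's median was -0.076 with 9 members on the lower side. Of 11 cardiac fibroblast markers tested, 5 were negative, with a median of 0.013. Within females 8 were negative (median -0.17, where the matrix list had -0.23), and within males 4 were (median 0.17, where the matrix list had -0.18). Their sum was 1185, 2085 and 2685 CPM in breeders and 1727, 2149 and 2765 CPM in non-breeders, and this list holds collagens too. The receptor PDGFRA, a fibroblast marker, stood at 13.7, 26.5 and 37.7 CPM in breeders and 6.38, 20.7 and 27.4 CPM in non-breeders (0.46 ± 0.18 on the log2 scale). PDGFRB, its relative on pericytes, stood at 49, 60.6 and 75.9 CPM in breeders and 41.9, 48.1 and 63.1 CPM in non-breeders (0.27 ± 0.08, adjusted p = 0.584, edgeR), with every breeder above the non-breeder median. Without the 5 libraries PDGFRA stood at 0.23 and PDGFRB at 0.31.

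Of 36 tested subunits of complex I, the first pump of the respiratory chain, 35 were lower in breeders, with a median log2 fold change of -0.14, and 5 had an unadjusted p below 0.05, all on the lower side. Of 37 subunits of complexes III, IV and V, 35 were negative with a median of -0.11, and 3 had an unadjusted p below 0.05, all lower. Among all genes tested 49.4% were negative. Subunits of these complexes are not independent of each other, since they share libraries and tend to move together. NDUFS7, a core subunit of complex I, was at 128, 202 and 242 CPM in breeders and 188, 229 and 272 CPM in non-breeders. The statuses overlapped over most of this range, and the log2 fold change was -0.20 ± 0.09 (adjusted p = 0.641, edgeR). NDUFA5 and NDUFA7, accessory subunits, stood at -0.26 ± 0.10 and -0.21 ± 0.09, the complex V subunit ATP5D at -0.27 ± 0.11, the complex III subunit UQCR10 at -0.22 ± 0.10 and the heart and muscle isoform COX7A1 of complex IV at -0.30 ± 0.14. Without NF_0525 alone NDUFA5, NDUFA7 and COX7A1 stood at -0.17, -0.14 and -0.17. The complex I sum was 6343, 9306 and 9681 CPM in breeders and 8301, 9628 and 12114 CPM in non-breeders. Without the 4 libraries high in atrial markers the complex I median was -0.076 (31 of 36 negative, 1 at an unadjusted p below 0.05), and without these and NF_0525 it was -0.047 (33 negative, 0 on either side in edgeR, where DESeq2 and limma-voom were not run on these libraries). The median of complexes III, IV and V was -0.061 and then -0.045.

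The genes of fatty acid uptake and oxidation had 20 of 25 members negative and a median of -0.12, with 4 at an unadjusted p below 0.05, all lower. FABP3, the cytosolic fatty acid carrier of heart muscle, was at 394, 631 and 807 CPM in breeders and 472, 833 and 1191 CPM in non-breeders, with no breeder above the non-breeder median. Its log2 fold change was -0.40 ± 0.14 (adjusted p = 0.641, edgeR). ETFB, which passes electrons from fatty acid oxidation to the respiratory chain, stood at -0.23 ± 0.09, and the carnitine palmitoyltransferases CPT2 and CPT1B at -0.29 ± 0.13 and -0.20 ± 0.12, or at -0.17 and -0.12 without NF_4060. CPT1B was lowest in BF_1816 among breeders and in NF_0525 among non-breeders. The list's median was -0.039 without the 4 libraries and -0.11 without the 5. Glycolysis and glucose uptake had 8 of 24 negative and a median of 0.029, with 1 member higher at an unadjusted p below 0.05, HK2 (hexokinase 2). HK2 stood at 1.16 ± 0.51 on the log2 scale and at 0.21 without BF_1816. It was at 28.6 CPM in BF_1816 and at most 2.71 CPM in any other heart. The citric acid cycle and ketone list had 12 of 21 negative and a median of -0.011. UCP3 was too low to be tested.

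In the lipid synthesis list the largest values came from a single library. SCD, the desaturase that makes oleate, was at 75.1, 112 and 879.8 CPM in breeders and 56.6, 80.9 and 102 CPM in non-breeders, with 1.03 ± 0.33 on the log2 scale. FASN, fatty acid synthase, was at 84.3, 98.3 and 769.7 CPM in breeders and 71.4, 80.8 and 103 CPM in non-breeders, with 0.79 ± 0.31. Without BF_1816 alone the log2 fold changes were 0.56 for SCD and 0.30 for FASN, and without the 5 libraries 0.41 and 0.20. Both were highest in BF_1816, and the second highest breeder had 241 CPM of SCD and 196 CPM of FASN. BF_1816 also held the highest adipocyte marker sum, 1158 CPM, where the other 5 female breeders had 173 to 262 CPM, and the highest sums of mesothelium and red blood cell markers. Over the list, 14 of 22 genes were positive with a median of 0.075, and 3 had an unadjusted p below 0.05, all higher.

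Genes of contraction and of its electrical and calcium control gave no list-wide difference. The sarcomere list had 10 of 18 negative and a median of -0.048, and its only member at an unadjusted p below 0.05, MYL4, is the atrial essential light chain. MYL4 was at 13.7, 285 and 1941 CPM in breeders and 19.2, 57.3 and 476 CPM in non-breeders, with a log2 fold change of 1.67 ± 0.60 (adjusted p = 0.641, edgeR). BF_6382 and BF_1816 gave its highest breeder values and NF_3605 its highest non-breeder value, and without the 5 libraries it stood at 0.99. ACTC1 was at 3997, 8885 and 10374 CPM in breeders and 7001, 8442 and 11358 CPM in non-breeders, a log2 fold change of -0.036 ± 0.12 with a 95% interval of -0.27 to 0.20. The troponins stood at -0.32 ± 0.17 for TNNI3 and -0.56 ± 0.40 for TNNT2, which was at 650.2 CPM in NF_0525. Without NF_0525 alone TNNT2 stood at -0.13, and without the 5 libraries TNNT2 stood at -0.18 and TNNI3 at -0.13. The ventricular light chains stood at -0.29 ± 0.17 for MYL2 and -0.12 ± 0.12 for MYL3. Both intervals of the light chains included 0. Of the calcium list 6 of 12 were negative (median 0.028), with 95% intervals of -0.15 to 0.39 for RYR2 and -0.12 to 0.28 for the calcium pump ATP2A2. The ion channel list had 7 of 13 negative with a median of -0.0011, and the gap junction gene GJA1 stood at 0.099 ± 0.13.

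The natriuretic peptides, which stretched heart muscle releases, varied more within a status than between statuses. NPPA was at 207, 533 and 7322 CPM in breeders and 89.8, 451 and 9288 CPM in non-breeders, with 0.91 ± 0.76 on the log2 scale. NPPB was at 141, 1036 and 1400 CPM in breeders and 264, 815 and 3083 CPM in non-breeders, with -0.12 ± 0.34. NPPA was highest in libraries high in atrial markers. Without NF_3605 alone it stood at 1.82, and with the atrial sum as a covariate its log2 fold change was -0.052. NPPA is itself a large part of that sum, so a value near 0 was built into this fit and nothing is concluded from it. Of the 13 genes of the load response list 8 were negative (median -0.021), and 1, the calcineurin regulator RCAN1, had an unadjusted p below 0.05 (-0.56 ± 0.25). The adrenergic, muscarinic and angiotensin list had 7 of 16 negative (median 0.024). Its members at an unadjusted p below 0.05 were EDN1, the vasoconstrictor endothelin (0.63 ± 0.25), and NPR3, the clearance receptor of natriuretic peptides (1.38 ± 0.61), both higher. NPR3 was at 9.57, 17.9 and 276 CPM in breeders and 3.95, 16 and 145 CPM in non-breeders, and its 3 highest libraries were BF_1816, BF_6382 and NF_3605. Its log2 fold change was 0.90 without BM_1215 alone and 0.19 without the 5 libraries, where its unadjusted p was 0.439 (edgeR). The beta-1 adrenergic receptor ADRB1 stood at -0.067 ± 0.19 and the angiotensin converting enzyme ACE at -0.54 ± 0.35, or -0.29 without NF_2411.

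Receptors for steroid and thyroid hormones had 8 of 9 tested members positive and a median of 0.15. The glucocorticoid receptor NR3C1 stood at 0.14 ± 0.10, the oestrogen receptor ESR1 at 0.069 ± 0.23, and the thyroid receptors THRA and THRB at 0.17 ± 0.13 and 0.17 ± 0.09. Without the 5 libraries the median of the list was 0.055.

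Genes that glucocorticoids induce had 12 of 14 members negative and a median of -0.18. SGK1, a kinase that aldosterone and cortisol induce, was at 27.6, 50 and 109.6 CPM in breeders and 28.8, 86.7 and 191 CPM in non-breeders. Of 12 breeders, 1 lay above the non-breeder median, and the log2 fold change was -0.79 ± 0.28 (adjusted p = 0.641, edgeR). ANGPTL4, an inhibitor of lipoprotein lipase, was at 2.42, 5.06 and 12.9 CPM in breeders and 3.23, 9.31 and 41.6 CPM in non-breeders (-1.17 ± 0.39). Both non-breeder maxima came from NF_0525. GLUL, glutamine synthetase, lay on the other side (0.35 ± 0.13), and FKBP5, the co-chaperone of the receptor, and PER1 stood at -0.050 ± 0.15 and -0.43 ± 0.23. Without the 5 libraries the list's median was -0.21, and SGK1, ANGPTL4 and GLUL stood at -0.61, -1.07 and 0.18.

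The immediate early genes, transcription factors that stimulation switches on within minutes, had 19 of 21 members negative and a median of -0.56, the widest of all 40 lists apart from the atrial markers. At an unadjusted p below 0.05 were 3, all lower, namely the nuclear receptors NR4A3 (-2.31 ± 0.85) and NR4A2 (-1.48 ± 0.56) and the AP-1 subunit FOSL2 (-0.54 ± 0.26). NR4A3 was at 0.57, 1.74 and 32.4 CPM in breeders and 0.646, 4.68 and 132 CPM in non-breeders. NM_0713 and NM_6074 were highest with 132 and 111 CPM, while BM_1215 alone among breeders exceeded 6.36 CPM. The list's sum was 464, 764 and 3560 CPM in breeders and 520, 1019 and 3423 CPM in non-breeders, with the highest in BF_1816. Among male non-breeders NM_0713, NM_1449 and NM_6074 had 1798 to 2359 CPM and the others 520 to 806 CPM. Members of this list share libraries and are not independent of each other. The list's median was -0.18 in females (13 of 21 negative) and -0.95 in males (all 21 negative), and without the 5 libraries it was -0.60 over both sexes. Clock genes had 5 of 15 negative (median 0.12). BHLHE40, a repressor of the clock, stood at -0.60 ± 0.18 (adjusted p = 0.616, edgeR), with 1 breeder above the non-breeder median, and NPAS2 and NR1D2 at 0.33 ± 0.11 and 0.34 ± 0.13. The output gene DBP stood at 0.19 ± 0.21.

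The insulin, IGF and mTOR list had 9 of 23 negative (median 0.021), with 3 at an unadjusted p below 0.05, all higher. These were the transcription factor FOXO3 (0.36 ± 0.13), the stress-induced SESN1 (0.32 ± 0.14) and the mTOR inhibitor TSC1 (0.28 ± 0.13). Without the 5 libraries FOXO3 stood at 0.18, SESN1 at 0.081 and TSC1 at 0.26. The cell cycle list, of low level throughout, had 13 of 16 negative (median -0.13), with RRM2, the ribonucleotide reductase subunit (-1.13 ± 0.32), the topoisomerase TOP2A (-0.78 ± 0.31) and the cyclin CCNA2 (-0.56 ± 0.25) lower at an unadjusted p below 0.05. RRM2 was at 0.136, 0.541 and 1.17 CPM in breeders and 0.246, 1.37 and 3.31 CPM in non-breeders, with no breeder above the non-breeder median. Ribosomal proteins had 13 of 42 negative with a median of 0.030, and RPL22 (0.13 ± 0.05) and RPLP0 (0.17 ± 0.08) had an unadjusted p below 0.05. The proteasome list had 23 of 28 negative with a median of -0.069, led by PSMB7 (-0.14 ± 0.06). Antioxidant genes had 15 of 29 negative (median -0.016). PRDX5, a peroxiredoxin, was the member at an unadjusted p below 0.05 (0.16 ± 0.07), while mitochondrial superoxide dismutase SOD2 and catalase CAT had 95% intervals of -0.25 to 0.55 and -0.24 to 0.21. Mitophagy and autophagy genes had 5 of 20 negative (median 0.028), led by BNIP3L (0.16 ± 0.08), with PINK1 at 0.075 ± 0.14. Heat shock and folding genes had 11 of 25 negative (median 0.024), interferon-induced genes 5 of 20 (median 0.065), and hypoxia-induced genes 9 of 16 (median -0.039), among which the vessel growth factor VEGFA stood at -0.45 ± 0.19 and ANKRD37 at -0.71 ± 0.29. Without NF_0525 VEGFA stood at -0.25.

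**Figure D4:**
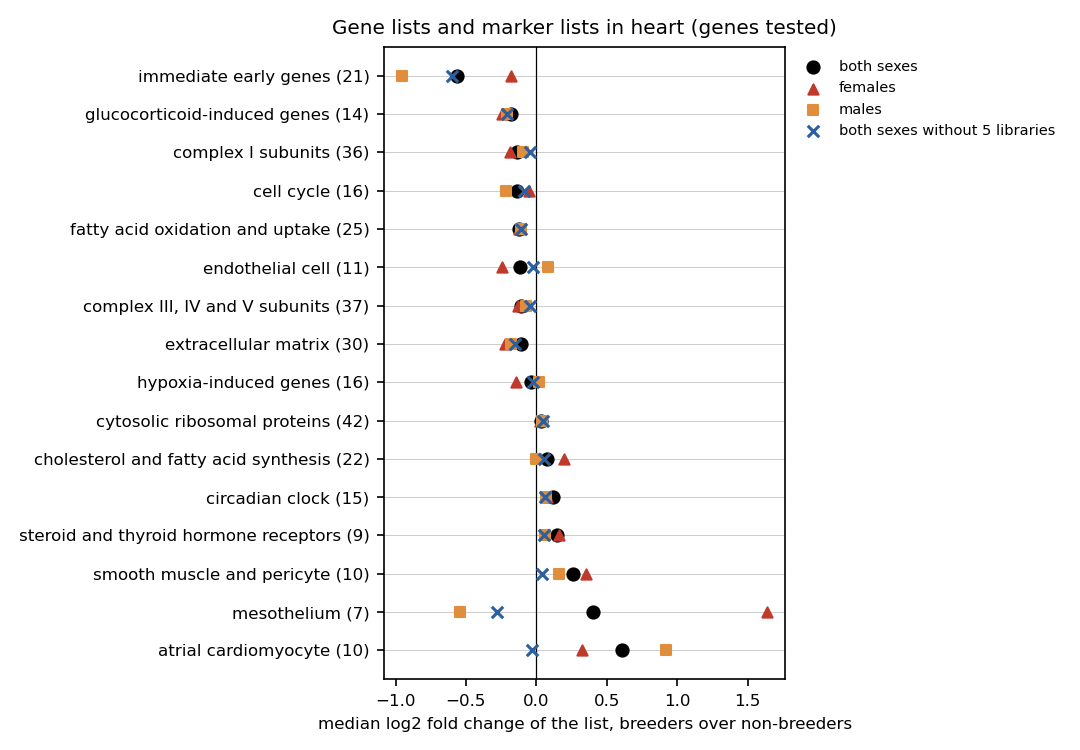
Median log2 fold change (breeders over non-breeders, x) of 16 lists in heart, for both sexes, females, males, and both sexes without the 5 libraries that stood apart, with the number of genes tested in parentheses. Immediate early genes stood at -0.56 over both sexes, and the atrial median of 0.61 stood at -0.031 without the 5 libraries. All of these except NF_0525 were picked by a high level of SLN, itself an atrial marker.

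Marker lists of cell types were read for the same contrast. The atrial list had 2 of 10 tested members negative and a median of 0.61, and its sum was 2107, 3150 and 16295 CPM in breeders and 1365, 2704 and 16793 CPM in non-breeders. Members at an unadjusted p below 0.05 were MYL4 and the transcription factor NR2F2 (0.36 ± 0.16), both higher, while SLN stood at 1.66 ± 0.82 and MYL7 at 0.86 ± 0.62. Without BM_1215 alone they stood at 0.72 and 0.50, and without NF_3605 alone at 2.66 and 1.75. Without the 4 libraries the atrial median was 0.050 and without the 5 it was -0.031. The 4 had been picked by SLN above 50 CPM, and SLN belongs to this list. The fall of the median therefore partly follows from that choice and is no separate result. The smooth muscle and pericyte list had 2 of 10 negative (median 0.26, and 0.038 without the 5), and mesothelium 1 of 7 (median 0.40, with 1.64 in females and -0.54 in males). Endothelial markers had 9 of 11 negative and a median of -0.12, with a female median of -0.24 (11 negative) and a male one of 0.086 (5 negative), and this difference between the sexes was not tested. The members at an unadjusted p below 0.05 were EGFL7 (-0.43 ± 0.15) and the junction gene CDH5 (-0.23 ± 0.11), both lower, and without NF_0525 they stood at -0.28 and -0.15. The sum of the list was 1388, 1593 and 1728 CPM in breeders and 1434, 1562 and 2907 CPM in non-breeders, where the highest was NF_0525, and without the 5 libraries the median was -0.023. The ventricular list had 4 of 6 negative (median -0.12), the conduction list 4 of 6 (median -0.19), and skeletal muscle 4 of 6 (median -0.092). Macrophage and leukocyte markers had 4 of 12 negative (median 0.055), T and B lymphocytes 2 of 2, red blood cells 1 of 4 (median 0.41), adipocytes 1 of 5 (median 0.22), lung and airway 2 of 3 (median -0.17), and Schwann cells and neurons 3 of 8 (median 0.12). No thymus marker was high enough to be tested, and their sum was at most 1.73 CPM in any heart. The part of these cell types in the gene values was not tested beyond the fits without libraries and with the atrial sum.

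Within each sex the comparison rested on 6 against 6. In females edgeR made 0 calls. Unadjusted p values below 0.05 were found for 348 genes on the higher side (2.82%) and 343 on the lower (2.78%), and DESeq2 made 0 calls and found 394 such genes. In males edgeR called 0, with 156 higher (1.26%) and 200 lower (1.62%) in the fit of all 4 groups, which share 1 estimate of the spread. With each sex fitted alone, edgeR again made 0 calls but the order turned, with 293 genes under an unadjusted p of 0.05 in females and 688 in males, so the counts do not rank the sexes. DESeq2 on the 12 male libraries had 735 such genes and 4 calls among 11987 genes tested, all lower, namely GDPD5, RAMP3, SERPINH1 and TBC1D10A. SERPINH1, for which the 6 male breeders (198 to 219 CPM) lay below the 6 male non-breeders (228 to 278 CPM), had a log2 fold change of -0.29 ± 0.05 in DESeq2 (adjusted p = 0.000492) and -0.28 ± 0.08 in edgeR's fit of all 4 groups (adjusted p = 1.00). RAMP3 was likewise apart in males, with 4.15 to 8.49 CPM in breeders and 10.3 to 12.5 CPM in non-breeders, and the difference between the sexes had an unadjusted p of 0.721 (edgeR). GDPD5, a glycerophosphodiesterase, was at 24.6 to 29.9 CPM in male breeders and 34.2 to 38.7 CPM in male non-breeders. Its log2 fold change was -0.40 ± 0.07 in males in DESeq2 (adjusted p = 0.000181), against 0.080 in females in edgeR's fit, with an unadjusted p of 0.00901 for the difference. TBC1D10A was at 18.1 to 22.2 CPM in male breeders and 24.1 to 34.1 CPM in male non-breeders (-0.47 ± 0.10, adjusted p = 0.00626 in DESeq2). In edgeR's fit of all 4 groups its unadjusted p in males was 0.121. The female non-breeder NF_0525 stood at 88.3 CPM of TBC1D10A, where the median of its group was 20.6 CPM. GDPD5 and TBC1D10A were named after their values were seen. How many of all genes lay fully apart between 6 and 6 males was not counted. The lack of overlap in these 4 genes is therefore a description.

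No gene was called for a difference in status effect between the sexes by edgeR or DESeq2, with 130 positive (1.05%) and 78 negative (0.632%) at an unadjusted p below 0.05 in edgeR and 218 in DESeq2. Over the 12336 genes, which are no independent replicates, log2 fold changes of females and males had r = 0.350 and rho = 0.360. SPARC stood at -0.69 ± 0.20 in females and -0.49 ± 0.20 in males, COL3A1 at -0.68 ± 0.30 in females and -0.97 ± 0.30 in males, and LRP1 at 0.50 ± 0.17 in females and 0.40 ± 0.17 in males. These genes were chosen on both sexes together, so agreement in sign is no further support. As a check of the labels, females against males called 7 genes (0.0567% of genes tested) in the same 24 libraries. The lead was KIF4A, a chromosome-segregation motor, with -5.83 ± 0.19 on the log2 scale (females over males, adjusted p = 4.84e-17, edgeR), and for status it stood at -0.12 ± 0.17.

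The same animals gave kidney, cerebellum and hypothalamus libraries, which were set beside heart. Breeders against non-breeders gave 0 calls in each (edgeR, adjusted p below 0.01), and unadjusted p values below 0.05 stood at 698 genes in kidney (1.68% higher and 3.44% lower), 543 in cerebellum (1.69% and 2.22%) and 302 in hypothalamus (1.2% and 0.954%), against 924 in heart. In cerebellum 22 animals were used. With the animal as a block, the status effect in heart differed from that in kidney, cerebellum and hypothalamus for 0 genes each, while 882, 500 and 1252 genes had an unadjusted p under 0.05, and limma-voom gave 0 calls and 743, 408 and 1040 such genes. Collagens had negative values in kidney as well, none of them called. COL3A1 stood at -0.83 ± 0.21 in heart and -0.83 ± 0.16 in kidney, with -0.23 ± 0.18 in cerebellum and 0.049 ± 0.25 in hypothalamus. COL1A1 stood at -0.71 ± 0.24 in heart and -0.94 ± 0.17 in kidney, with -0.011 ± 0.14 in cerebellum and 0.22 ± 0.12 in hypothalamus. SPARC stood at -0.59 ± 0.14 in heart, -0.28 ± 0.09 in kidney, 0.089 ± 0.07 in cerebellum and 0.15 ± 0.09 in hypothalamus, where heart minus hypothalamus was -0.72 ± 0.16 (unadjusted p = 0.000128, adjusted p = 0.349, edgeR). RAMP3 stood at -0.068 ± 0.10 in kidney, -0.069 ± 0.11 in cerebellum and -0.0023 ± 0.07 in hypothalamus. The matrix list had 29 of 30 members negative in kidney (median -0.27), 11 of 29 in cerebellum (median 0.011) and 8 of 30 in hypothalamus (median 0.12). Complex I had 12 of 36 negative in kidney, 35 of 36 in cerebellum (median -0.088) and 7 of 36 in hypothalamus, and immediate early genes had medians of 0.019, -0.33 and 0.026 in the same tissues. Glucocorticoid-induced genes had 12 of 14, 12 of 13 and 12 of 14 members negative, with medians of -0.17, -0.13 and -0.049. The share of negative genes among all genes tested is not given here for kidney, cerebellum and hypothalamus. The list counts in these tissues are therefore a description. Because the tissues share their donors, a similar count in several of them is no independent replication.

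**Figure D5:**
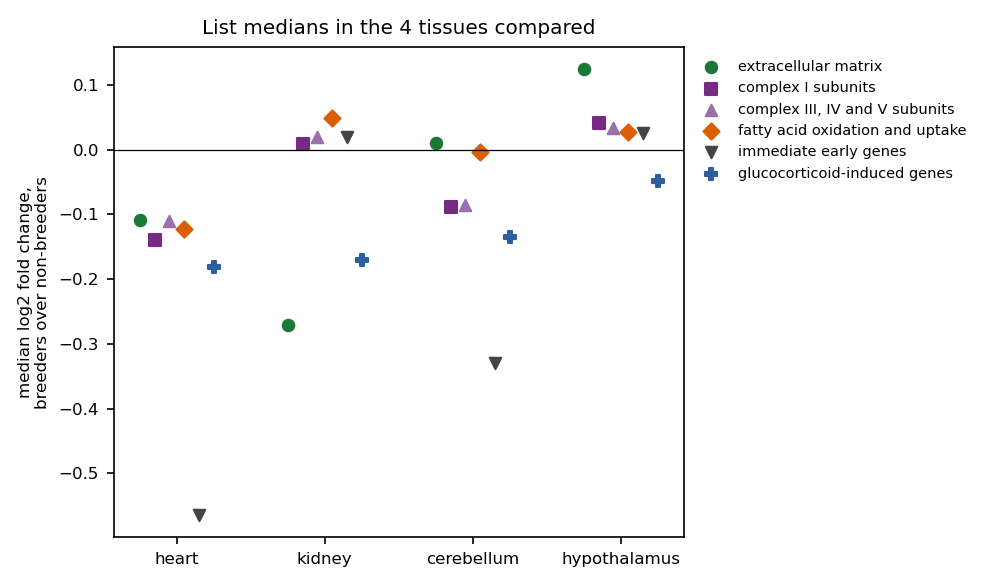
Median log2 fold change (breeders over non-breeders, y) of 6 lists in heart, kidney, cerebellum and hypothalamus of the same animals. The matrix median was -0.11 in heart, -0.27 in kidney, 0.011 in cerebellum and 0.12 in hypothalamus, and immediate early genes stood at -0.56 in heart.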

How the data were processed

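The authors used STAR 2.4.1d to align single-end reads of an unstranded RNA-seq kit to the public genome of the species. They kept reads with a single locus and counted them on the genes with HTSeq. The deposited table of the authors holds raw counts for 16339 gene rows, and no values were normalized before deposit. Without strand, reads of a gene and of its antisense partner cannot be told apart where the 2 overlap. Near-identical paralogs lose reads. A locus for each gene is not given, since the table of names used here describes a newer assembly.

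Groups came from the labels. The 24 heart libraries were filtered with filterByExpr over the 4 groups of status and sex, scaled by TMM and tested by the quasi-likelihood F-test of edgeR 4.0.16 (R 4.3.3) with robust dispersions, with sex as a covariate and all 24 libraries sharing 1 estimate of the spread. DESeq2 1.42.0 and limma 3.58.1 were alternatives. P-values were adjusted by Benjamini-Hochberg over all genes tested, and a call needed an adjusted p below 0.01, the level of the study, which used DESeq2 per sex. Status within a sex and its interaction with sex came from a fit of the 4 groups. Age and depth were compared by two-sided permutation tests with 100000 resamples. Tests were tried on simulated data first. No pair of libraries within a group held identical values or agreed within sampling noise (lowest chi-square per degree of freedom 7.66).

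Heart was set against each other tissue in a fit of both tissues with the animal as a block, because both libraries came from the same animal. As a check, deviations from the group mean were correlated between both tissues of an animal, with a median r of 0.12 for kidney, 0.068 for cerebellum and 0.079 for hypothalamus. The lowest r was -0.096, -0.039 and -0.035 in the same order. A heart matched its own animal best for 10 of 24 animals in kidney, 3 of 22 in cerebellum and 6 of 24 in hypothalamus, so the check was weak. The cerebellum library of BM_5982, which the study left out, was not used, and cerebellum of BM_3274 is not analysed here.

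The lists and members were chosen with earlier results of these data known. Genes were named by a rule, namely all calls, the 10 smallest p values on either side, up to 3 members of each of 40 lists by p, and a set of heart, hormone and stress genes. Of the 149 tested genes that the rule takes, 93 were followed through the alternatives, and the others, mostly members of marker lists, were left out for space. A few items are not reported here.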

Additional observations from a re-analysis of the deposited data

Results flagged for a closer look

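Within each group of 6, the highest and lowest library were set against the others for 34 measures, which makes 136 groups, and 21 values from 7 libraries stood far from the rest. Chance alone marks about 1 in 20 groups, and measures of 1 library are not independent of each other.

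NF_0525, the youngest animal, had the 10 most abundant genes take 51.4% of its counts, where the other female non-breeders had 32.3% to 38.9%. Its median correlation with other hearts was 0.920, against 0.969 to 0.983 in the others of its group. It also had the highest sum of endothelial markers (2907 CPM, others 1468 to 1920) and the highest RAMP3 (23.9 CPM, others 7.46 to 13.3).

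BF_1816 had a median correlation of 0.940, where the other female breeders had 0.969 to 0.982. Its adipocyte markers summed to 1158 CPM (others 173 to 262), its red blood cell markers to 2503 CPM (others 156 to 304), and its SCD was 879.8 CPM (others 78.7 to 241).

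NF_3605 stood apart by atrial markers (16793 CPM, others 1365 to 3368), by mesothelium markers (223 CPM, others 9.82 to 55.5), by SLN (90.05 CPM, others 1.62 to 6.23) and by NPPA (9288 CPM, others 95.8 to 1002). BM_1215 stood apart by SLN (79.4 CPM, others 1.57 to 4.49), by NR4A3 (32.4 CPM, others 0.57 to 2.27) and by its median correlation (0.978, others 0.983 to 0.985).

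BM_6656 had the highest COL4A1 (298 CPM, others 184 to 223) and the lowest SERPINH1 (198 CPM, others 212 to 219) of the male breeders, and the highest adipocyte sum (290.3 CPM, others 149.6 to 197). NM_6206 had the highest NPPA (1265 CPM, others 89.8 to 482) and atrial sum (3766 CPM, others 2188 to 2757) of the male non-breeders. BF_6841 was the deepest library, with 19809100 counts against 11775100 to 13036700 in the other female breeders.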

How the results depend on the processing

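The count of 0 calls between breeders and non-breeders held under every alternative run, namely RLE and upper-quartile scaling, no filter and a stricter one (1 CPM in 12 libraries), DESeq2, limma-voom, a threshold of 0.05, no sex covariate, an age covariate, dispersions without robust estimation, each sex alone, and each of 24 libraries left out (0 to 0 calls, with 652 to 1232 genes at an unadjusted p below 0.05). The threshold of 0.05 was applied to the main edgeR fit. Some fits were added after the data were seen. They were without the 4 libraries high in atrial markers, without these 4 and NF_0525, and with the atrial sum as a covariate. These fits also gave 0 calls and had 689, 624 and 583 genes under an unadjusted p of 0.05. Their smallest adjusted p values were 0.236, 0.137 and 0.351 (edgeR). Genes under an unadjusted p of 0.05 numbered 293 in females and 688 in males with each sex fitted alone, against 691 and 356 in the fit of all 4 groups. In males DESeq2 called 4 of 11987 genes tested, against 0 in edgeR. In females and for the interaction DESeq2 called 0.

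Of the 93 genes followed, none was called under any alternative to the test over both sexes, and 3580 of 3614 values kept their sign. The signs that turned were these. In males alone the log2 fold changes were 0.095 for ACTC1, 0.25 for NPPB, -0.0082 for GJA1, 0.12 for ACE, 0.13 for FKBP5, -0.11 for DBP, 0.050 for CAT and 0.0023 for KIF4A, and in females alone ADRB1 stood at 0.019. Without the 4 libraries ACTC1 stood at 0.074, NPPB at 0.32, SLN at -0.39, ADRB1 at 0.10 and ESR1 at -0.12, and without the 5 libraries at 0.048, 0.25, -0.48, 0.0050 and -0.19 in the same order. The 4 libraries were picked by their SLN level, so the turn of SLN is no separate result. With the atrial covariate NPPA stood at -0.052, SLN at -0.12 and ESR1 at -0.16, and FKBP5 was 0.0040 in limma-voom. NPPA and SLN are members of the atrial sum, so for them that fit is no separate check. Leaving out 1 library at a time gave -0.062 to 0.034 for ACTC1, -0.077 to 0.079 for CAT, -0.061 to 0.19 for ESR1, -0.12 to 0.093 for FKBP5, -0.20 to 0.11 for NPPB and -0.011 to 0.12 for PINK1. The cause was not tested.

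The heart comparison could not be paired by animal, because each animal gave 1 heart library and numbers are not shared between groups. Non-breeders were litter siblings of breeders, but the labels used here do not give the litter, so pairing by litter was not done. For heart against another tissue the replicate block was the animal, and the fit with no replicate block also gave 0 calls, and 907, 695 and 1248 genes had an unadjusted p under 0.05 for kidney, cerebellum and hypothalamus. Depth set which genes were tested. Genes under the count filter enter only the summed marker levels.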
